A study of Mus musculus with 11 samples.

Results

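The aryl hydrocarbon receptor axis comprised 7 genes, namely Ahr, Arnt, Arnt2, Tiparp, Cyp1b1, Cyp1a1 and Ahrr, taken by name from the 24421 gene symbols in each count file. All 7 were found in all 11 files, and 6 passed the filter on low counts. Cyp1a1, with 10 counts in all libraries together, did not pass. RNA of mouse hippocampus was compared between offspring of mothers given particulate matter (PM) and offspring of mothers given normal saline (Vehicle). Dosing was through the nose at gestation days 9, 12 and 15, birth was on day 21, and the hippocampus was taken at 14 to 18 weeks of age. PM was given at 200 µg per kg. There were 5 vehicle and 6 PM libraries in 2 deposit sets. Replicates 1 to 3 of both groups make up the first set, and the later numbers (vehicle 4 and 5, PM 4 to 6) the second. Strain, litter and sex are not stated in the labels, so the spread that p-values rest on is that of these samples and may partly be technical. The treatment field that only the second set carries names PM for its vehicle libraries too, and the groups here follow each sample's own title and treatment entry.

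AHR is a ligand-activated transcription factor of the basic helix-loop-helix PAS (bHLH-PAS) family. It waits in the cytosol in a complex with the chaperone HSP90, and on binding a ligand, such as the polycyclic aromatic hydrocarbons carried on combustion particles, it moves to the nucleus and pairs with ARNT. The pair binds DNA at xenobiotic response elements and turns on genes of ligand-oxidizing enzymes, among them Cyp1a1 and Cyp1b1, as well as Tiparp and Ahrr, whose products restrain the receptor. ARNT also partners the hypoxia-inducible factors, and its relative ARNT2 is the form known for its expression in neurons.

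Vehicle libraries held 6012116 to 12496651 gene counts and PM libraries 10938521 to 17763893. Counts with no feature were 60.9% to 62.0% of all counts in vehicle libraries, 18.8% to 21.4% in PM libraries of the first set and 29.3% to 34.0% in those of the second. The groups thus differed in library composition, and 69.1% of 14982 tested genes passed the test. Exposure and composition cannot be told apart in this design. Neuron, astrocyte, microglia and oligodendrocyte markers were all detected, as the labelled tissue would carry. Sex-linked genes were not balanced over groups and sets. The Y-linked Ddx3y was at 49.7 to 71.1 CPM (a gene's share of the library after TMM scaling) in 7 libraries. It was at 0 to 0.0716 CPM in the other 4, vehicle replicates 4 and 5 and PM replicates 3 and 6, which held 207 to 2420 CPM of Xist. Vehicle libraries thus split by set. In the second set both vehicle libraries held Xist, while PM replicates 4 and 5 held Ddx3y. Effects in the second set and differences between sets are partly confounded with this split. PM libraries of the 2 sets also differed in composition. Rn45s made up 12.4% to 17% of gene counts in the first and 4.01% to 8.14% in the second. Malat1 made up 0.0827% to 0.164% and 0.714% to 0.807%. Differences between sets cannot be told apart from this either.

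Levels of different genes were compared per kilobase of merged exons, as CPM per kb. In vehicle libraries Arnt2 stood highest at 32.6 ± 1.52 CPM per kb (SD, n = 5). Arnt followed at 7.08 ± 0.0541, then Tiparp at 5.58 ± 0.652, Ahr at 3.02 ± 0.199 and Cyp1b1 at 0.89 ± 0.105 CPM per kb. The ranges of these 5 genes did not overlap. Ahrr at 0.0972 ± 0.0354 and Cyp1a1 at 0.0391 ± 0.0413 CPM per kb were lowest, and their ranges overlapped each other. In PM libraries the order by mean was the same, but Arnt (2.51 to 7.75 CPM per kb) overlapped Tiparp (2.21 to 5.08), and Ahr (0.874 to 1.38) overlapped Cyp1b1 (0.318 to 1.13).

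**Figure D1:**
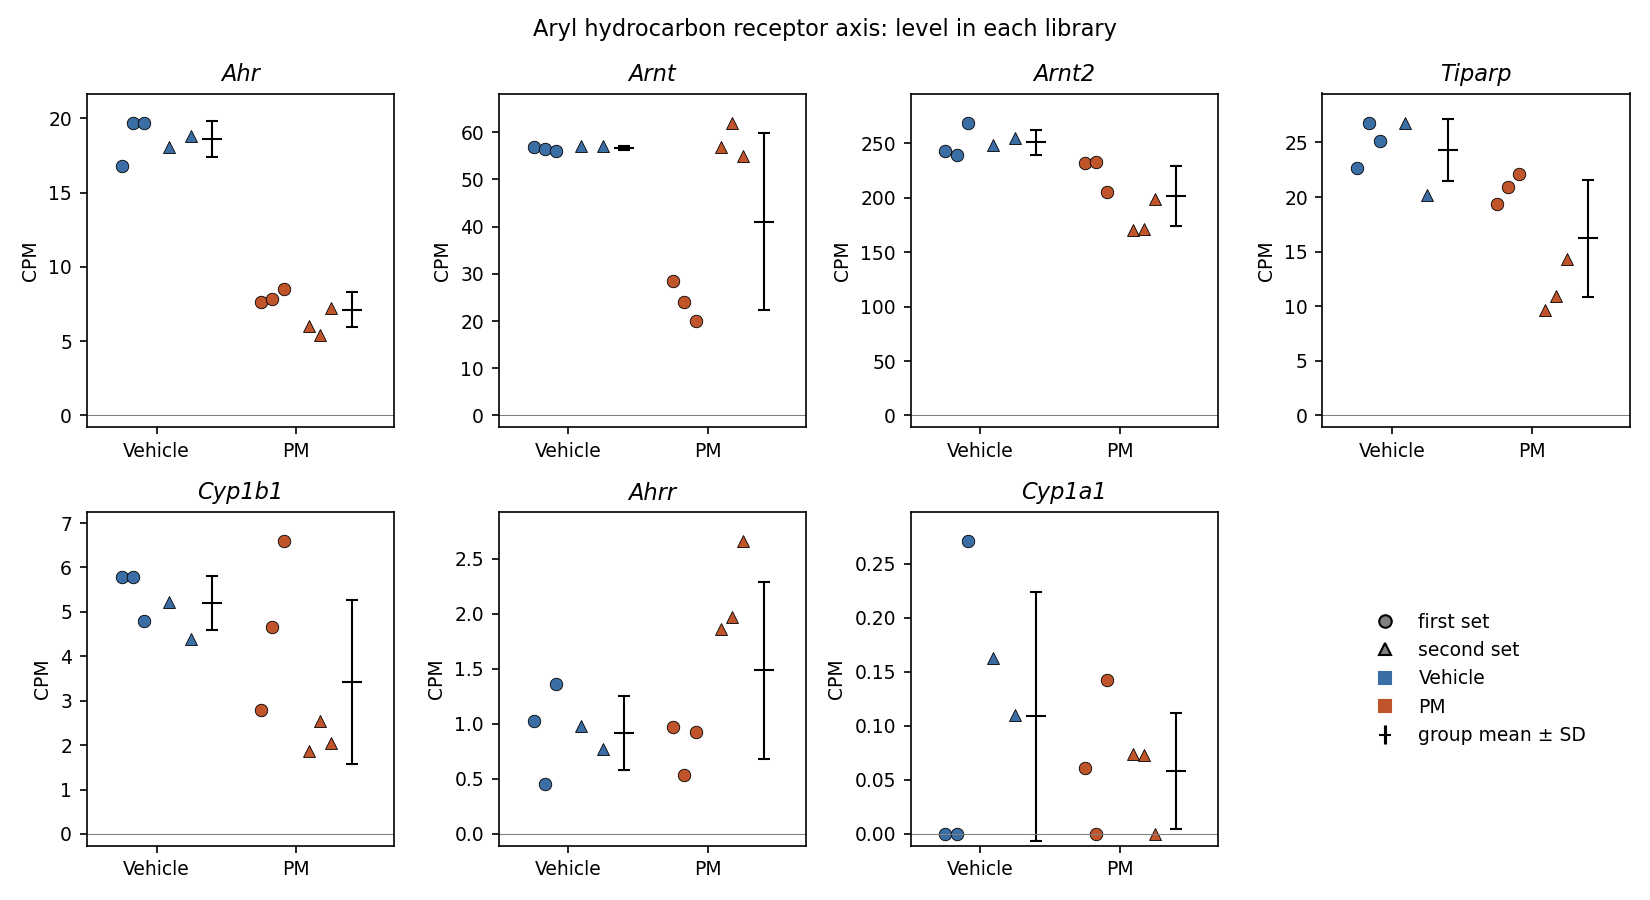
Level of each of the 7 genes (vertical axes, CPM, each with its own linear scale) in the 5 vehicle and 6 PM libraries, with circles for the first set, triangles for the second, and a bar for the group mean ± SD. For Ahr every PM library lies below every vehicle library, whereas the PM libraries of Arnt fall into the first set at 20.1 to 28.4 CPM and the second at 55.0 to 62.0 CPM.

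Ahr, the gene of the receptor, fell in PM in both sets. In the first set it was at 16.8, 19.7 and 19.7 CPM in vehicle and at 7.66, 7.86 and 8.53 CPM in PM libraries. In the second it was at 18.1 and 18.8 CPM in vehicle and at 6.01, 5.39 and 7.26 CPM in PM libraries. All 6 PM libraries thus lay below all 5 vehicle libraries, as did those of 28.1% of tested genes. Mean levels were 18.6 ± 1.23 CPM in vehicle (SD, n = 5) and 7.12 ± 1.19 CPM in PM (SD, n = 6), which is -1.37 on the log2 scale (SE 0.11, edgeR adjusted p = 1.741e-07). The first set gave -1.22 (SE 0.13) and the second -1.58 (SE 0.16), a difference of -0.35 whose 95% interval ran from -0.79 to 0.09 (edgeR adjusted p = 0.2168). Ahr lies on chromosome 12 (35497974 to 35535038, GRCm38, minus strand), and its longest annotated transcript of 5548 bases exceeds those of 87.4% of genes. Each library's levels also trended with transcript length and GC content, and once this trend was taken out (called length and GC adjustment from here) the change was smaller, 1.67-fold in place of 2.59-fold (log2 fold change -0.74, SE 0.11, edgeR adjusted p = 5.253e-05). In bulk tissue, fewer cells of a type and less RNA per cell cannot be told apart.

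Arnt (chromosome 3, 95434388 to 95497240, plus strand), the partner AHR needs to bind DNA, fell in the first set and did not pass the test in the second. In the first it was at 56.9, 56.5 and 56.0 CPM in vehicle and at 28.4, 24.1 and 20.1 CPM in PM libraries. Second-set libraries had it at 57.0 CPM in both vehicle libraries and at 56.9, 62.0 and 55.0 CPM in PM libraries. The vehicle libraries of both sets were within 56.0 to 57.0 CPM, so the PM libraries carried the difference. The log2 fold change was -1.22 in the first set (SE 0.11, edgeR adjusted p = 5.688e-08) and 0.02 in the second, with a 95% interval from -0.24 to 0.28 (edgeR adjusted p = 0.8767). The difference of 1.24 between sets passed the test (SE 0.17, edgeR adjusted p = 9.753e-05), as did that of 29.6% of tested genes. It was 1.22 after length and GC adjustment (edgeR adjusted p = 4.381e-05), which put the first set at -0.93 (edgeR adjusted p = 3.471e-07) and the second at 0.29, then past the threshold as higher (edgeR adjusted p = 0.03386). It was 1.05 without PM replicates 3, 4 and 5, so that sex-linked genes matched within each set (edgeR adjusted p = 0.00095, with 1 PM library left in the second set). The pooled value of -0.68 (SE 0.20, edgeR adjusted p = 0.007486) averages unlike sets. After adjustment it was -0.40 and no longer passed (edgeR adjusted p = 0.08058).

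Arnt2 (chromosome 7, 84246278 to 84410176, minus strand), the paralog of Arnt, was the most abundant gene of the axis and changed least among those that passed. It was at 243, 239 and 269 CPM in vehicle and at 232, 233 and 205 CPM in PM libraries of the first set. Its levels in the second set were 249 and 255 CPM in vehicle and 170, 171 and 199 CPM in PM libraries. No PM library reached the lowest vehicle library, though PM replicate 2 came close to it (233 against 239 CPM). The log2 fold change was -0.31 (SE 0.087, edgeR adjusted p = 0.006216), being -0.16 in the first set (edgeR adjusted p = 0.1238) and -0.48 in the second (edgeR adjusted p = 0.0006544). The difference of -0.32 between sets did not pass (edgeR adjusted p = 0.0953) but did without PM replicate 3 (edgeR adjusted p = 0.04688) or PM replicate 6 (-0.50, edgeR adjusted p = 0.01602). It also passed with DESeq2 size factors (-0.40, edgeR adjusted p = 0.04084), without a filter on low counts (-0.44, edgeR adjusted p = 0.03027) and after length and GC adjustment (-0.60, edgeR adjusted p = 0.001385). That adjustment put Arnt2 higher in the first set (0.44, edgeR adjusted p = 8.63e-05) and ended the call in the second (-0.16, edgeR adjusted p = 0.1302). Over all libraries Arnt2 turned to 0.17 after length and GC adjustment (SE 0.10, edgeR adjusted p = 0.162), so its direction depended on this adjustment. Its transcript of 6228 bases exceeds those of 90.6% of genes.

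Ratios of counts within a library do not depend on how libraries are scaled. They are still exposed to the length trend, as transcripts have 4325 bases for Arnt, 5548 for Ahr and 6228 for Arnt2. Vehicle libraries held 4.23 to 4.80 Arnt2 counts for each Arnt count. PM libraries held 8.15 to 10.2 in the first set and 2.76 to 3.61 in the second, on opposite sides of the vehicle range. Averaged over sets, the log2 ratio differed by 0.28 (two-sided exact permutation test within sets over 200 splits, p = 0.315, adjusted p = 0.315 over 3 ratios). For Ahr to Arnt the log2 ratio was -1.61 ± 0.10 in vehicle (SD, n = 5), and its PM means were -1.58 (first set) and -3.22 (second set) (averaged difference -0.79, exact permutation p = 0.065, adjusted p = 0.0975). The PM libraries of the second set had less Ahr for each Arnt than any vehicle library, while those of the first spanned the vehicle range.

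**Figure D2:**
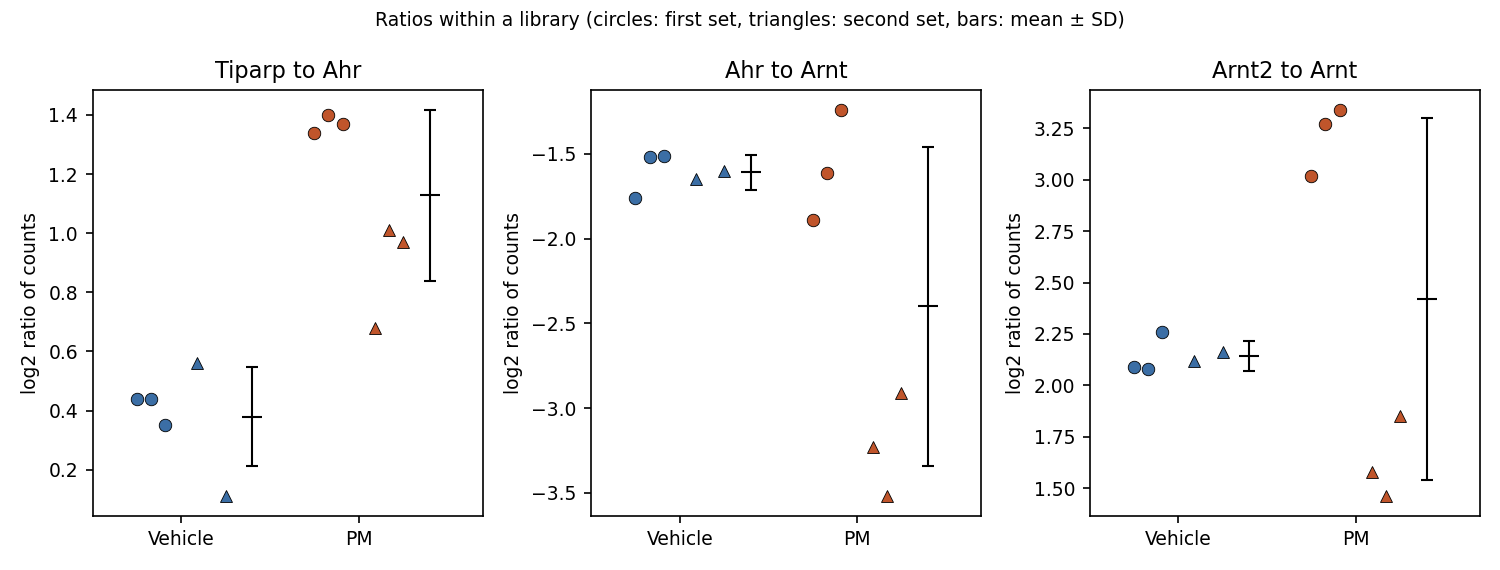
Log2 ratio of counts (vertical axes) of Tiparp to Ahr, Ahr to Arnt and Arnt2 to Arnt in each library, with circles for the first set, triangles for the second, and bars for the group mean ± SD. Tiparp to Ahr is above all vehicle libraries in every PM library, while the other ratios split the PM libraries by set.

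The known targets of AHR were described next, and their start sites are shown for the core of the element that AHR and ARNT are known to bind. The core GCGTG was searched on both strands in the 200 bases before each RefSeq gene start. Of the 7 genes, 6 had an entry in the promoter table (all but Ahr), and 5 of those held the core (all but Arnt2). Of the 20788 promoters of genes in the count files, 30.4% held it. A match is a description of letters and not a bound site. The cores are in capitals below, 5′ to 3′ on each gene's strand, where CACGC is the core on the other strand (GRCm38.p6). The Tiparp run stops where an annotated exon begins.
Tiparp: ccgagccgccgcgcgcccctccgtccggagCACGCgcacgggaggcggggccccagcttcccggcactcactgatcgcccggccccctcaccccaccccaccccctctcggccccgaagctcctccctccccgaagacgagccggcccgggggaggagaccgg
Cyp1b1: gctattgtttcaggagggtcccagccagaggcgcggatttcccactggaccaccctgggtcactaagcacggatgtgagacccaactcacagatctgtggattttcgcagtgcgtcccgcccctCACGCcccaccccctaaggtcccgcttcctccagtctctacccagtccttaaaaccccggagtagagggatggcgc
Cyp1a1: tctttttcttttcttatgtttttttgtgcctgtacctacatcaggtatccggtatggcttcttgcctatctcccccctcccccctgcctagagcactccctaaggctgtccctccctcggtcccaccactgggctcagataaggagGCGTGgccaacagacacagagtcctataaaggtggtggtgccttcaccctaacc
Ahrr: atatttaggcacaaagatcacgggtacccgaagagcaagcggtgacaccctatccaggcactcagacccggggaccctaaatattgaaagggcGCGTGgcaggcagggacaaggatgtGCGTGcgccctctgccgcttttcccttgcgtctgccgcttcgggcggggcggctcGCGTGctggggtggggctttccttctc
These runs are chr3:65528247-65528409 (plus strand), chr17:79715062-79715261 (minus strand), chr9:57697413-57697612 (plus strand) and chr13:74292332-74292531 (minus strand). Ahrr held 3 cores, which 2.70% of promoters reach or exceed, and the other targets 1 each.

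Tiparp (chromosome 3, 65528410 to 65555518, plus strand) encodes PARP7, a mono-ADP-ribosyltransferase that is induced by AHR and represses it. It was at 22.7, 26.8 and 25.1 CPM in vehicle and at 19.4, 20.9 and 22.1 CPM in PM libraries of the first set. For the second set the levels were 26.8 and 20.2 CPM in vehicle and 9.65, 10.9 and 14.3 CPM in PM libraries. PM was below vehicle within each set, but vehicle replicate 5 lay within the PM range of the first set. The log2 fold change was -0.58 (SE 0.15, edgeR adjusted p = 0.00433), being -0.26 in the first set (SE 0.14, edgeR adjusted p = 0.1083) and -1.01 in the second (SE 0.17, edgeR adjusted p = 6.42e-05). The difference of -0.76 between sets passed the test (edgeR adjusted p = 0.01673) but not without vehicle replicate 4 (-0.55, edgeR adjusted p = 0.1183), with sex-linked genes matched (-0.40, edgeR adjusted p = 0.2672) or after length and GC adjustment (-0.52, edgeR adjusted p = 0.06672). The call of the second set was lost after adjustment too (-0.38, edgeR adjusted p = 0.05501). Over all libraries Tiparp was at -0.08 after length and GC adjustment and no longer passed (edgeR adjusted p = 0.6196).

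Tiparp rose relative to the receptor gene. Vehicle libraries held 1.08 to 1.48 Tiparp counts for each Ahr count and PM libraries 1.60 to 2.65. All 6 PM libraries were above all 5 vehicle libraries. The log2 ratio rose by 0.76 averaged over sets, or 1.69-fold (two-sided exact permutation test within sets, p = 0.005, the smallest that 200 splits allow, adjusted p = 0.015 over 3 ratios). By set, PM was higher by 0.96 (first) and 0.55 (second). Without any 1 of the PM libraries of the second set the adjusted p was 0.05. This is the smallest value that the fewer splits then allow when 1 ratio alone is low. The loss of the call therefore says nothing about those libraries. The transcripts differ in length, 4191 bases for Tiparp and 5548 for Ahr, so this ratio is exposed to the length trend.

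Cyp1b1 (chromosome 17, 79701537 to 79715061, minus strand) encodes a cytochrome P450 that oxidizes aromatic hydrocarbons and is known from vessel walls and meninges. It was at 5.78, 5.79 and 4.79 CPM in vehicle and at 2.80, 4.67 and 6.59 CPM in PM libraries of the first set. Among second-set libraries it was at 5.23 and 4.40 CPM in vehicle and at 1.86, 2.55 and 2.04 CPM in PM libraries. PM replicate 3 held the highest level of all 11 libraries, so the groups overlapped in the first set, while in the second they did not. The log2 fold change was -0.59 (SE 0.24, edgeR adjusted p = 0.04398), with -0.23 in the first set (edgeR adjusted p = 0.4282) and -1.15 in the second (edgeR adjusted p = 0.006831). No difference between sets passed the test (-0.91, edgeR adjusted p = 0.1127) except without PM replicate 1 (-1.18, edgeR adjusted p = 0.01254). The pooled call was lost when any 1 of 8 libraries was left out (all but vehicle replicate 3 and PM replicates 2 and 3), and that of the second set without vehicle replicate 4 (-1.03, edgeR adjusted p = 0.05114). Length and GC adjustment left Cyp1b1 at -0.05 (edgeR adjusted p = 0.8823), and at -0.59 in the second set (edgeR adjusted p = 0.1584).

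Markers of cells of vessel walls and meninges, where Cyp1b1 is known, were counted over all libraries. Among all tested genes 32.7% were higher and 36.4% lower. Of 9 tested pericyte and smooth muscle markers, 4 were higher, 2 lower and 3 did not pass. Their summed level was 105 to 130 CPM in vehicle and 116 to 247 CPM in PM libraries, and Cnn1 was under 1 CPM. Kcnj8, at 0.966 CPM on average in vehicle libraries, rose 3.44-fold and Tagln rose 3.95-fold. The 2 lower ones, Rgs5 and Abcc9, fell 1.29-fold and 1.3-fold. Of 8 meningeal fibroblast markers, 2 were higher, 3 lower and 3 did not pass, with summed levels of 164 to 267 CPM and 110 to 242 CPM. Of 12 endothelial markers, 8 were higher and none lower, with summed levels of 183 to 218 CPM and 239 to 454 CPM and Cldn5 up 3.71-fold. In the second set, where Cyp1b1 was called lower, 6 pericyte and smooth muscle markers were higher and none lower. Endothelial markers had 7 higher and none lower there, and fibroblast markers none higher and 2 lower (all tested genes 32.3% higher, 32.5% lower). In the first set these lists had, in the same order, 4 higher and 3 lower, 6 and 2, and 2 and 1 (all tested genes 32.1% and 38.9%). Over all libraries, microglia markers had 8 of 10 higher and none lower (245 to 269 and 330 to 501 CPM). Neuron markers had 3 of 10 higher and 5 lower (11600 to 13000 and 9950 to 12200 CPM). Astrocyte markers had 4 of 8 higher and 2 lower (7210 to 7630 and 3640 to 6530 CPM), and oligodendrocyte markers 5 of 8 higher and none lower. Choroid plexus markers varied most between libraries, 83.1 to 1370 CPM in vehicle and 38.6 to 2520 CPM in PM, with 1 of 6 tested lower. Length and GC adjustment changed this picture, with 5236 of 14424 tested genes higher and 4041 lower. Astrocyte markers then had 7 of 8 higher and none lower, and fibroblast markers 1 of 8 higher and none lower. Pericyte and smooth muscle markers had 6 of 9 higher and 1 lower. Endothelial markers had 9 of 12 higher, microglia markers 8 of 10 higher, neuron markers 3 of 10 higher and 4 lower, oligodendrocyte markers 5 of 8 higher and 1 lower, and none of 6 choroid plexus markers passed. No marker list summed to 0 in any library, and the part of these cells in the changes of the axis was not tested.

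Ahrr (chromosome 13, 74211118 to 74292331, minus strand), the repressor that competes with AHR for ARNT, had few counts, 46 in the vehicle and 120 in the PM libraries together. It was at 1.03, 0.453 and 1.36 CPM in vehicle and at 0.972, 0.532 and 0.931 CPM in PM libraries of the first set. Later libraries, of the second set, had it at 0.981 and 0.769 CPM in vehicle and at 1.86, 1.97 and 2.66 CPM in PM libraries. The 3 PM libraries of the second set were the highest of all 11. Over all libraries Ahrr did not pass (log2 fold change 0.43, SE 0.37, edgeR adjusted p = 0.3191; exact permutation p = 0.155). The effect in the second set was 1.31 (SE 0.48, edgeR adjusted p = 0.02384) and in the first -0.23 (SE 0.41, edgeR adjusted p = 0.6264). The difference of 1.54 between sets did not pass (edgeR adjusted p = 0.07842) except without vehicle replicate 2 (1.86, edgeR adjusted p = 0.02781). In the second set the call was lost without vehicle replicate 4 (edgeR adjusted p = 0.06222), vehicle replicate 5 (edgeR adjusted p = 0.1752) or PM replicate 6 (edgeR adjusted p = 0.06401). After length and GC adjustment Ahrr passed over all libraries at 1.02 (SE 0.38, edgeR adjusted p = 0.02922).

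Cyp1a1 (chromosome 9, 57687928 to 57703824, plus strand), the enzyme most often read as a sign of AHR activity, was near the limit of detection. It had 0, 0, 3, 1 and 1 counts in vehicle replicates 1 to 5 and 1, 0, 2, 1, 1 and 0 counts in PM replicates 1 to 6. Pooled, this was 0.10 CPM in vehicle (exact 95% Poisson interval 0.0325 to 0.234) and 0.0582 CPM in PM libraries (0.0189 to 0.136), intervals that cover counting error only. A count of 0 in 1 library allows 3 counts, which is 0.177 CPM in the deepest and 0.490 CPM in the shallowest library. No difference was detectable at this depth (two-sided exact permutation test within sets, p = 0.34).

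**Figure D3:**
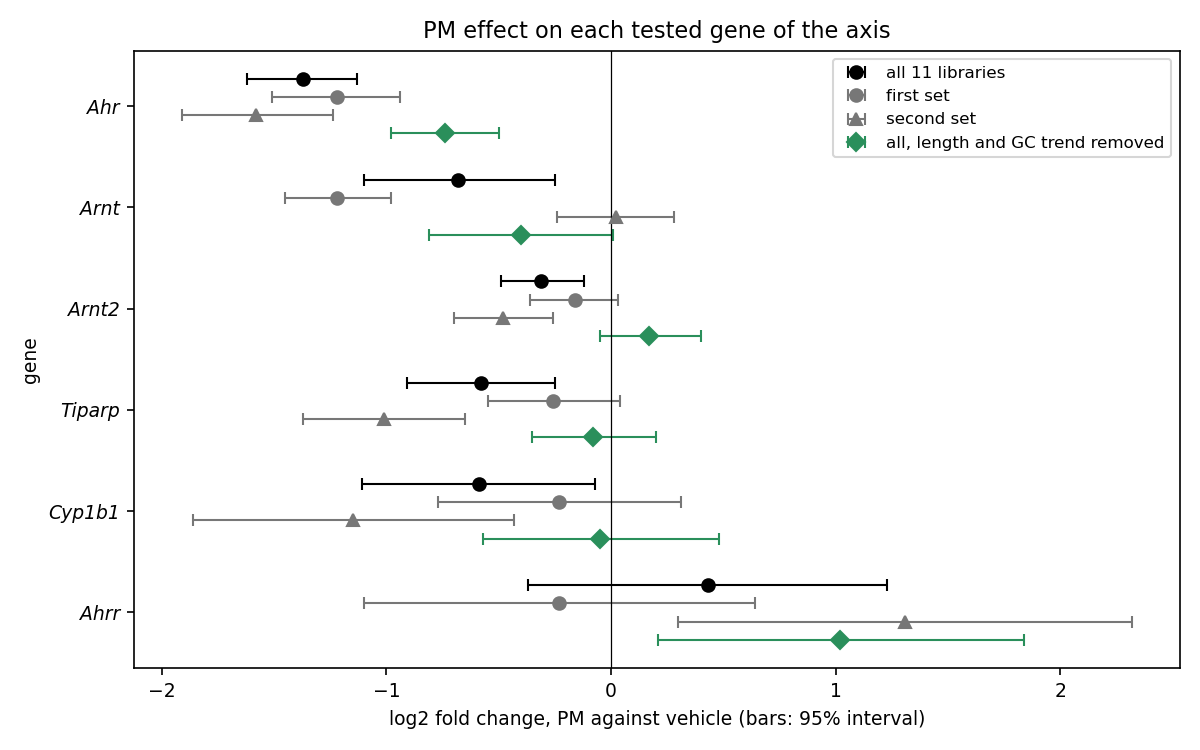
Log2 fold change of PM against vehicle with its 95% interval (horizontal axis) for the 6 tested genes (vertical axis), over all 11 libraries, in each set, and over all libraries after length and GC adjustment. Ahr is left of 0 in all 4 estimates, Arnt differs between the sets, and Arnt2, Tiparp and Cyp1b1 move to or past 0 with the adjustment.

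Of the 6 tested genes of the axis, 5 were lower, none higher and 1 did not pass, with a median log2 fold change of -0.58. Among all tested genes 36.4% were lower and 32.7% higher, with a median of -0.04. In CPM, 2 of the 6 (Ahr and Arnt2) had all PM below all vehicle libraries and none had all above, where 28.1% of tested genes lay below, 24.3% above and 52.4% either way. In the first set 2 of the 6 were lower and none higher, where 71.0% of tested genes passed, 38.9% lower and 32.1% higher. For the second set these were 4 lower and 1 higher, where 64.8% passed, 32.5% lower and 32.3% higher. Ahr alone was lower in both sets, as were 26.2% of tested genes, and none had opposite calls in the sets, as 3.41% of genes did, though Arnt had them after length and GC adjustment. After length and GC adjustment, 1 was lower (Ahr) and 1 higher (Ahrr), where 64.3% of genes passed and the median of all genes moved from -0.04 to 0.07. Transcripts of the 6 genes are longer than those of 74.7% to 90.6% of genes.

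The rest of the pathway was described by lists. Genes of the cytosolic complex that holds AHR mostly rose: of 6, 5 were higher, none lower and Hsp90ab1 did not pass, with a median log2 fold change of 0.62. The kinase co-chaperone gene Cdc37 averaged 63.4 ± 3.94 CPM in vehicle (SD, n = 5) and 128 ± 9.25 CPM in PM (SD, n = 6), a rise of 1.02 on the log2 scale (SE 0.078, edgeR adjusted p = 9.206e-08). The kinase gene Src rose 1.46-fold. Hsp90aa1 rose 1.63-fold, with log2 fold changes of 1.12 (first set) and 0.19 (second set, edgeR adjusted p = 0.2027). After length and GC adjustment 5 genes passed as higher, with a median of 0.55 and Cdc37 at 1.92.

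Coregulators that AHR and ARNT share with other factors were all lower, 8 of 8, with a median of -1.47. Nrip1, a corepressor, fell 7.84-fold (-2.97 on the log2 scale, SE 0.17, edgeR adjusted p = 6.974e-09). The coactivator genes Ncoa2 and Ncoa1 fell 2.67-fold and 2.51-fold, and Rb1, the retinoblastoma gene, 2.87-fold. After adjustment 7 of 8 were lower, the median was -0.62 and Nrip1 was at -1.78.

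Other bHLH-PAS factors had 8 of 10 tested genes lower, 1 higher and 1 not passed, with a median of -0.90. Npas3 fell 2.77-fold, Hif1a, the hypoxia-inducible factor that pairs with ARNT, 1.80-fold and its relative Epas1 1.52-fold. The circadian gene Clock fell 1.95-fold but turned to a log2 fold change of 0.53 after adjustment (edgeR adjusted p = 1.048e-05). The median of the list was then -0.30. Npas1 alone rose (log2 fold change 0.85), and Sim1 and Sim2 had too few counts to test.

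Targets of the hypoxia-inducible factors, which also need ARNT, had 6 of 11 tested genes higher, 1 lower and 4 not passed, with a median of 0.43. The glycolytic genes Pgk1 and Ldha rose 3.11-fold and 2.17-fold, Ankrd37 2.44-fold and the mitophagy gene Bnip3 1.34-fold. After adjustment the median was 0.38.

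Of 12 other AHR targets, 8 had under 1 CPM and were not tested, among them the enzyme genes Cyp1a2 and Aldh3a1. The 4 tested moved both ways. Nqo1, a quinone reductase also driven by NRF2, averaged 2.25 ± 0.709 CPM in vehicle and 4.24 ± 1.83 CPM in PM, higher by 0.94 on the log2 scale (SE 0.30, edgeR adjusted p = 0.01358). The amino acid transporter gene Slc7a5 rose 1.33-fold, while the cell cycle inhibitor gene Cdkn1b fell 1.34-fold and Nfe2l2, the gene of NRF2, 1.23-fold. By set, Cdkn1b passed in both and Nfe2l2 in neither. Nqo1 passed in the first only (1.18, against 0.55 in the second, edgeR adjusted p = 0.3113). Slc7a5 passed in the second only (0.83, against 0.09 in the first, edgeR adjusted p = 0.5775). After adjustment, only Nqo1 of these 4 passed.

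Enzymes of the kynurenine pathway make or use tryptophan products that can bind AHR. Of 11 in the files, 5 were tested, with 2 higher, 1 lower and 2 not passed. Tdo2, which opens the tryptophan ring, averaged 3.44 ± 0.626 CPM in vehicle and 8.58 ± 3.50 CPM in PM, higher by 1.36 on the log2 scale (SE 0.23, edgeR adjusted p = 0.0001559). Its relative Ido2 fell 1.68-fold and the aminotransferase gene Ccbl1 rose by 0.59 on the log2 scale, whereas Ccbl2 stood at 0.21 (edgeR adjusted p = 0.3285). By set, Tdo2 passed in both. Ido2 passed in the first only (-1.01, against -0.37 in the second, edgeR adjusted p = 0.3324). Ccbl1 passed in the second only (1.23, against 0.12 in the first, edgeR adjusted p = 0.5097). The length and GC adjustment covers only the 3 of the 5 that had a length, so the list has no adjusted median here. Of these, Tdo2 (1.76, edgeR adjusted p = 7.19e-06) and Ido2 (-0.77, edgeR adjusted p = 0.00763) still passed, and Afmid did not (-0.42, edgeR adjusted p = 0.1771).

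**Figure D4:**
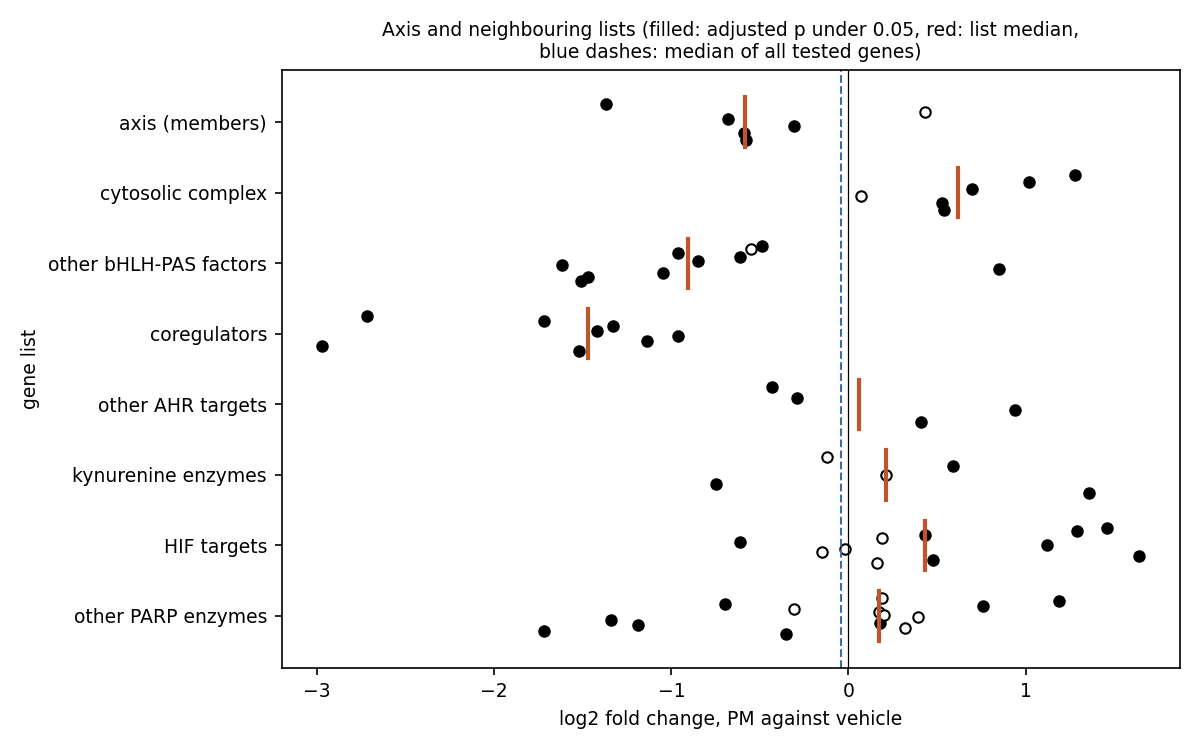
Log2 fold change of PM against vehicle (horizontal axis) for each tested gene of the axis and of 7 neighbouring lists (vertical axis), with filled points past the threshold, red bars for list medians and a dashed line for the median of all tested genes. The cytosolic complex lies right of 0 and the coregulators left of it, with the axis at a median of -0.58.

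Genes most alike to each member were taken by Pearson correlation of log2 CPM over the 11 libraries among 14502 genes, as a description in which all genes share the libraries and their composition. Ahr was closest to Ppargc1a (r = 0.995), Ttc39b (0.995) and Tceb3 (0.993). Arnt was closest to Plekha6, Zcchc7 and Srrm1, each at 0.994. For Arnt2 these were Tmem74 (0.979), Smc1a (0.973) and Scg2 (0.969), and for Tiparp Glrb (0.970), Cadps2 (0.966) and Rad21 (0.965). Cyp1b1 was closest to Gtdc1 (0.949), Slc44a1 (0.946) and Aldh6a1 (0.943), and those alike to Ahrr included Shroom1 (0.936) and Pisd-ps2 (0.934). Within the axis the highest value was 0.899 for Arnt2 with Tiparp, and Arnt stood at 0.342 with Ahr and -0.021 with Arnt2.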

How the data were processed

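RNA sequencing counts of 11 mouse hippocampus libraries were used, 1 file per library. The deposited files hold whole-number counts per gene symbol, which the authors did not normalize, with HTSeq summary rows that stayed out of library sizes and tests. The submitters' processing notes list HTSeq 0.9.1, Picard 2.9.2, SAMtools 1.9, STAR, Trimmomatic 0.36 and FastQC 0.11.9, and name mm10 and hg19 as builds. No label gives the strand setting, so reads from a gene and its antisense partner cannot be told apart. Ahr, Arnt2 and Tiparp share 127, 214 and 223 exon bases with annotated genes on the opposite strand. The labels' protocols describe depletion of ribosomal RNA, while their molecule field names polyA RNA.

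The test was that of edgeR 4.0.16, run under R 4.3.3 (filterByExpr with a minimum count of 10, TMM, robust quasi-likelihood test with set as covariate, two-sided, Benjamini-Hochberg adjustment over 14982 genes, threshold 0.05). Effects by set came from 1 joint fit of group and set. Each standard error is the size of the log2 change over the root of its F statistic. CPM use TMM-scaled library sizes, and log2 CPM had 0.5 added, as had counts in ratios. Lengths, GC content and positions came from GENCODE M21 (GRCm38, the assembly of mm10), which matched 95.7% of 24421 symbols. For the length and GC adjustment, a smooth trend was fitted per library with mgcv 1.9.3 over 14424 genes and entered as an offset. Other alternatives were DESeq2 1.42.0 and its size factors, library totals, other filters, no set covariate, the replicate number as a block, each set alone and leaving out each library. The choices added after the data were seen were the trend in the joint fit and the libraries matched on sex-linked genes. The closest libraries of 1 group, vehicle replicates 1 and 3, differed by a chi-square of 2.01 per degree of freedom, so none was merged. Steps were tested on simulated data in which few genes changed. No length trend or shift in composition was simulated, so those conditions were not covered. Named genes were all members, the 4 of smallest p in each pathway list, up to 2 markers per cell type and the 3 most alike to each tested member. A few genes that this rule names are not reported here. Other genes, such as Npas1, Hsp90ab1, Rgs5, Abcc9, Rn45s and Malat1, were named after their values were seen. The members and lists were chosen with earlier results of these data known.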

Additional observations from a re-analysis of the deposited data

Results flagged for a closer look

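The PM effect on Arnt differed between the sets by 1.24 on the log2 scale (second minus first, edgeR adjusted p = 9.753e-05). Arnt was lower in all 3 PM libraries of the first set and within 55.0 to 62.0 CPM in those of the second, against 56.0 to 57.0 CPM in vehicle. PM libraries of the sets also differed in composition, and the part of this in the difference was not tested.

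The PM effect on Tiparp differed between the sets by -0.76 on the log2 scale (edgeR adjusted p = 0.01673), with the lower values in the second set, and the difference did not pass without vehicle replicate 4 (-0.55), with sex-linked genes matched (-0.40) or after length and GC adjustment (-0.52). No library of either group stood apart from the others for any of the 7 genes by Dixon's criterion. Each group pooled both sets, so the criterion could hardly flag a single library where PM libraries split by set, as for Arnt and Tiparp.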

How the results depend on the processing

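Ahr kept its direction and its side of the threshold under every alternative run, from -1.43 to -1.32 with 1 library left out and at -0.74 after length and GC adjustment. The other genes depended on the processing, and the cause was not tested. With DESeq2 size factors Cyp1b1 was at -0.55. Without a filter on low counts Arnt2 was at -0.21 and Cyp1b1 at -0.49, and without the set covariate Arnt was at -0.47 and Cyp1b1 at -0.60, none past the threshold. In the first set alone Arnt2 (-0.07), Tiparp (-0.16) and Cyp1b1 (-0.13) did not pass and Ahrr turned to -0.14. In the second set alone Arnt turned to 0.03 and Ahrr passed at 1.32. After length and GC adjustment Arnt (-0.40), Tiparp (-0.08) and Cyp1b1 (-0.05) did not pass, Arnt2 turned to 0.17 and Ahrr passed at 1.02. In the joint fit with this adjustment (chosen after seeing the data), Arnt2 (0.44), Tiparp (0.14), Cyp1b1 (0.30) and Ahrr (0.31) turned in the first set, where Arnt2 passed as higher. In the second set the calls of Arnt2 (-0.16), Tiparp (-0.38) and Cyp1b1 (-0.59) were lost and Arnt passed as higher (0.29). With library totals alone, Arnt2 (-0.25) and Tiparp (-0.35) passed in the first set.

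No pairing by replicate number was seen. Deviations of same-numbered libraries from their group means correlated at -0.313 to 0.204 across genes, and those from group and set means at -0.197 to 0.013. Only 1 of 5 vehicle and 1 of 5 PM libraries correlated best with their own number. So few correlations cannot exclude that a number stands for a shared litter or batch. With the replicate number as a block, which leaves out PM replicate 6, Arnt2 (-0.27) and Cyp1b1 (-0.54) did not pass, and 9209 genes did. With block and adjustment together, Arnt (-0.43), Tiparp (-0.11) and Cyp1b1 (-0.05) did not pass, nor did Ahrr (0.95, adjusted p = 0.0599), Arnt2 was at 0.17, and 3365 genes were lower in place of 5450. With libraries matched on sex-linked genes, also chosen after seeing the data, Arnt2 (-0.18) did not pass, Arnt in the second set was at -0.04, and 2600 genes differed between sets in place of 4428.

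Leaving out 1 library at a time gave -0.84 to -0.54 for Arnt, -0.34 to -0.27 for Arnt2, -0.66 to -0.44 for Tiparp, -0.81 to -0.47 for Cyp1b1 (adjusted p 0.003479 to 0.1257) and 0.17 to 0.70 for Ahrr. By set, it gave -0.55 to 0.03 for Cyp1b1 and -0.55 to 0.09 for Ahrr in the first, and -0.03 to 0.05 for Arnt in the second. Log2 ratios ran from 0.65 to 0.87 for Tiparp to Ahr (exact permutation adjusted p = 0.05 without PM replicate 4, 5 or 6). That is the smallest value the fewer splits allow when 1 ratio alone is low. For Ahr to Arnt they ran from -0.88 to -0.71, which passed without PM replicate 3 (adjusted p = 0.03), and for Arnt2 to Arnt from 0.23 to 0.33. Genes called over all libraries were 9882 to 10197, and those that differed between sets 2400 (without vehicle replicate 5) to 5612. Depth limits Cyp1a1 and Ahrr, at 10 and 166 counts in all.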

Other observations

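Tiparp belongs to the PARP family of ADP-ribosyltransferases, and the other members moved both ways. Of 14 tested, 3 were higher, 5 lower and 6 did not pass, where 32.7% of all tested genes were higher and 36.4% lower. The median log2 fold change was 0.18 against -0.04 over all tested genes. Tnks, the gene of tankyrase, averaged 126 ± 4.09 CPM in vehicle (SD, n = 5) and 37.9 ± 8.14 CPM in PM (SD, n = 6) and so fell 3.31-fold (edgeR adjusted p = 1.062e-08). Parp4 fell 2.54-fold, Parp8 2.29-fold and Parp11, a mono-ADP-ribosyltransferase like Tiparp, 1.62-fold. After length and GC adjustment these 4 were still lower, with Tnks at -0.48, and 6 members were higher, among them Tnks2, which turned from -0.35 to 0.56. Of all 14424 genes then tested, 5236 were higher and 4041 lower.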
